A study of Danio rerio with 4 samples.

Results

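The genes described here are those of the spliceosome and of splicing factors in sorted hepatocytes of zebrafish larvae. They were chosen by the descriptions in the authors' deposited tables, which had to begin with the name of a splicing factor, a pre-mRNA-processing factor, a serine/arginine-rich splicing factor, a small nuclear ribonucleoprotein (snRNP) or a U6 snRNA-associated protein. By this rule 85 of the 33737 genes of the expression table were members. Of these, 81 reached a mean of at least 1 RPKM (reads per kilobase of gene, scaled to library size) over the 4 libraries and were tested, among 11135 genes in all. The 4 members below the threshold were zrsr2, at a mean of 0.924 RPKM the nearest below it, prpf3, a further gene described as U4/U6 Prp3 (ENSDARG00000058430) and a gene described as Pre-mRNA-processing factor 39 (si:ch211-114c17.1). The member nearest above it was a gene described as RBM22 (ENSDARG00000089396), with a mean of 1.19 RPKM.

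The study compared zc3h8-/- mutant larvae with wild-type larvae at 5.5 and 7.5 days post fertilization (dpf). Each of the 4 groups had 1 library: mutant at 5.5 dpf, wild type at 5.5 dpf, mutant at 7.5 dpf and wild type at 7.5 dpf. Larvae of every group were of strain ABGO and carried Tg(lfabp:Dendra2-NTR), a transgene in which the promoter of the liver fatty acid binding protein drives a fluorescent protein and nitroreductase in hepatocytes. Livers were dissected and brought into suspension with 0.5% trypsin at 4 °C, cells were collected on a flow sorter, and Smart-seq2 libraries were made from their total RNA. The sources used here do not state how many larvae a library pooled.

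The spliceosome removes introns from pre-mRNA in a series of steps on each intron. U1 snRNP recognises the 5′ splice site, U2 snRNP and its partners take the branch site, and the U4/U6.U5 tri-snRNP then joins and is rearranged, with the Prp19 complex, into the catalytic machine. Each snRNP is built on a ring of Sm proteins, or of LSm proteins in the case of U6, while serine/arginine-rich (SR) proteins bind exons and guide the choice of splice sites.

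The 4 libraries held 36353369 reads in the mutant and 35960165 in wild type at 5.5 dpf, and 29648253 in the mutant and 36999723 in wild type at 7.5 dpf. The wild-type library of 7.5 dpf stood apart: 34.2% of tested genes, and 13 of the 81 tested members, had 3 reads or fewer there, against 18.6 to 26.2% of tested genes and 2 to 4 members in the other libraries. With 1 library a group there was no test of a single comparison and no error over animals. Bulk libraries cannot tell fewer cells of a type from less RNA per cell. No ID carried the symbol zc3h8 in the table of symbols used here, so the targeted gene was not analysed here and gave no check of the labels. All 8 hepatocyte markers matched were detected in every library, and their summed level was 37975 RPKM in the mutant against 74614 RPKM in wild type at 5.5 dpf, and 18114 against 55116 at 7.5 dpf. The sum was mostly apoa2 and fabp10a. At 5.5 dpf fgb alone went the other way (682 RPKM in the mutant against 511 RPKM in wild type). The hp marker was at most at 2.39 RPKM, its value in the 7.5 dpf wild type.

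Most tested members were higher in the mutant at both stages. A member is called here where the difference of log2(RPKM + 1), mutant minus wild type, was at least 1 in size (2-fold on that scale, which understates changes of weakly expressed genes). At 5.5 dpf 40 of 81 members were 2-fold higher in the mutant, beside 28% of all tested genes, and 8 were 2-fold lower, beside 25.6%. At 7.5 dpf 54 of 81 were 2-fold higher, beside 40%, and 7 were 2-fold lower, beside 23.1%. The median difference over the tested members was 0.88 at 5.5 dpf, where that of all tested genes was 0.00, and 1.76 at 7.5 dpf, where that of all tested genes was 0.33. The members' median was thus above that of all tested genes at both stages. The RPKM of the 81 members summed to 5248 in the mutant against 1688 in wild type at 5.5 dpf, and to 6415 in the mutant against 1449 in wild type at 7.5 dpf. Among members with more than 3 reads in both libraries of a comparison, 38 of 75 were 2-fold higher and 4 lower at 5.5 dpf, beside 30.9% and 17.7% of all genes so filtered. At 7.5 dpf 42 of 67 were 2-fold higher and 6 lower, beside 35% and 21.4%. With the 5.5 dpf wild-type library in place of the one that stood apart, which also differs in stage, the 7.5 dpf mutant was 2-fold higher for 48 of 81 members and lower for 3, beside 38.6% and 26.9%.

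**Figure D1:**
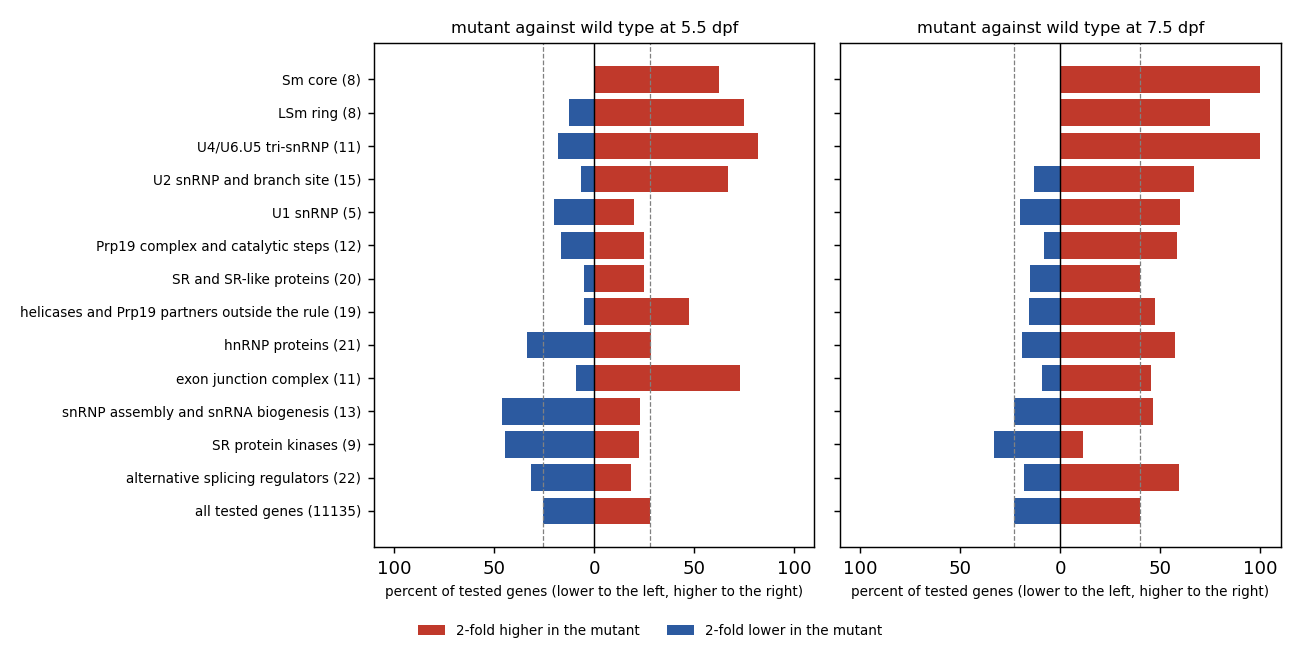
Percent of tested genes 2-fold higher (red, to the right) or 2-fold lower (blue, to the left) in the mutant than in wild type, for each group of splicing genes and 6 lists of splicing-related genes outside the rule, with the number of genes in brackets; dashed lines mark the shares of all tested genes. The Sm, LSm, tri-snRNP and U2 groups had 62.5 to 81.8% of genes higher at 5.5 dpf and 66.7 to 100% at 7.5 dpf, above the shares of all tested genes.

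The Sm proteins form the heptamer ring of the U1, U2, U4 and U5 snRNPs. All 8 tested Sm genes were higher in both mutant libraries than in either wild-type library, beside 22.8% of all tested genes. Of the 8, 5 were 2-fold higher at 5.5 dpf, beside 28%, and all 8 at 7.5 dpf, beside 40%, with medians of 2.07 and 3.09. The snrpd2 gene, for Sm D2, was at 407 RPKM in the mutant against 62.7 RPKM in wild type at 5.5 dpf, and 564 in the mutant against 27.1 in wild type at 7.5 dpf. In CPM (reads scaled to library size) it was 6.49-fold higher (counting interval 6.16 to 6.84) at 5.5 dpf and 20.8-fold higher (counting interval 19.3 to 22.4) at 7.5 dpf. These 95% intervals address counting error only, treat reads as independent and hold no error over animals. PCR reads without molecular identifiers are not independent molecules, so the intervals are likely too narrow even for counting error. The gene described as Small nuclear ribonucleoprotein G (ENSDARG00000078085) was at 160.0 RPKM in the mutant against 26.3 RPKM in wild type at 5.5 dpf, and 256 in the mutant against 10.4 in wild type at 7.5 dpf. For snrpe, which encodes Sm E, the values were 139.8 RPKM in the mutant against 15.5 RPKM in wild type at 5.5 dpf, and 175 in the mutant against 16.3 in wild type at 7.5 dpf. In these 3 genes the lower mutant library lay above the higher wild-type library by a wide margin.

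The gene described as Small nuclear ribonucleoprotein F (ENSDARG00000036570) had nearly the same difference at both stages (4.34 at 5.5 dpf and 4.34 at 7.5 dpf). It was at 83.2 RPKM in the mutant against 3.15 RPKM in wild type at 5.5 dpf, and 65.8 in the mutant against 2.31 in wild type at 7.5 dpf. In CPM this gene was 26.4-fold higher (counting interval 19.9 to 35.9) at 5.5 dpf and 28.5-fold higher (counting interval 20.5 to 40.8) at 7.5 dpf. The snrpd1 gene, for Sm D1, was at 91.1 RPKM in the mutant against 29.9 RPKM in wild type at 5.5 dpf, and 57.7 in the mutant against 7.18 in wild type at 7.5 dpf. The remaining 3 Sm IDs had the smallest differences of the 8 at both stages. The more abundant of the 2 IDs for snrpd3 (ENSDARG00000013800), which encodes Sm D3, was at 448 RPKM in the mutant against 333 RPKM in wild type at 5.5 dpf, and 456 in the mutant against 202 in wild type at 7.5 dpf. Its copy (ENSDARG00000076283) was at 61.5 RPKM in the mutant against 41.1 RPKM in wild type at 5.5 dpf, and 234 in the mutant against 34.8 in wild type at 7.5 dpf. The snrpb gene, for Sm B, was at 125 RPKM in the mutant against 80.2 RPKM in wild type at 5.5 dpf, and 224 in the mutant against 82.5 in wild type at 7.5 dpf. None of these last 3 was called at 5.5 dpf, where their differences were 0.43, 0.57 and 0.63, and all 3 were called at 7.5 dpf. At 7.5 dpf the call of the more abundant snrpd3 ID was lost when differences were centred on the median of all tested genes (0.84). That call was also lost under TMM scaling (0.80), a rescaling of the libraries.

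**Figure D2:**
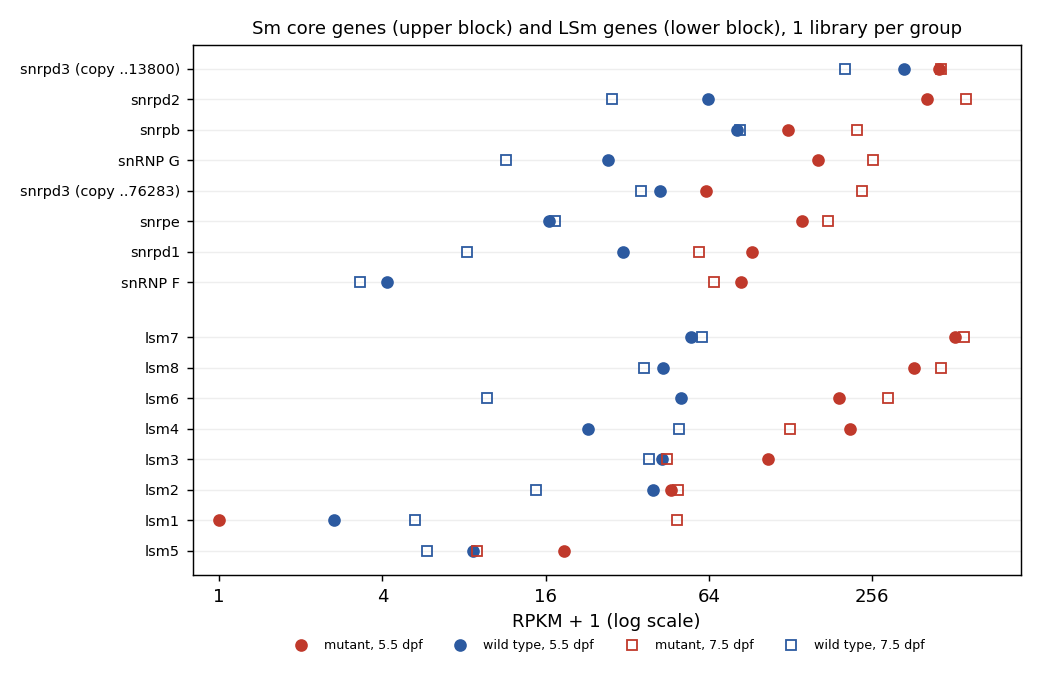
RPKM + 1 on a log axis in each of the 4 libraries for the 8 Sm core genes and the 8 LSm genes, ordered by mean RPKM; mutant in red and wild type in blue, 5.5 dpf as circles and 7.5 dpf as open squares, 1 library per symbol. Both mutant symbols lie to the right of both wild-type symbols for all 8 Sm genes and for 7 of 8 LSm genes, the exception being lsm1. Of all tested genes 22.8% were higher in both mutant libraries than in either wild-type library.

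The LSm ring that sits on U6 snRNA is made of LSm proteins 2 to 8, and a ring with LSm1 in place of LSm8 promotes mRNA decapping in the cytoplasm. Of the 8 LSm genes, 6 were 2-fold higher and 1 lower at 5.5 dpf (median 1.62), beside 28% and 25.6% of all tested genes. At 7.5 dpf 6 were higher and none lower (median 2.48), beside 40% and 23.1%. The RPKM of the LSm genes summed to 1451 in the mutant against 257 in wild type at 5.5 dpf. At 7.5 dpf it summed to 1581 in the mutant against 213 in wild type. The most abundant, lsm7, was at 516 RPKM in the mutant against 53.8 RPKM in wild type at 5.5 dpf, and 557 in the mutant against 59.5 in wild type at 7.5 dpf. The lsm8 gene, whose product sets the U6 ring apart from the cytoplasmic one, was at 364 RPKM in the mutant against 42.2 RPKM in wild type at 5.5 dpf, and 457 in the mutant against 35.8 in wild type at 7.5 dpf. In CPM lsm7 was 9.60-fold higher (counting interval 9.13 to 10.1) at 5.5 dpf and 9.36-fold higher (counting interval 8.93 to 9.82) at 7.5 dpf. For both genes the mutant libraries were close to each other, as were the wild-type ones.

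Other LSm genes differed more by stage. The lsm6 gene was at 192 RPKM in the mutant against 49.5 RPKM in wild type at 5.5 dpf, and 292 in the mutant against 8.76 in wild type at 7.5 dpf. Its level in the 7.5 dpf wild type was the lowest by far. The lsm4 gene was at 210.4 RPKM in the mutant against 21.9 RPKM in wild type at 5.5 dpf, and 126 in the mutant against 48.7 in wild type at 7.5 dpf. The lsm1 gene, of the cytoplasmic ring, went the opposite way at 5.5 dpf. It was at 0 RPKM in the mutant against 1.66 RPKM in wild type at 5.5 dpf, and 47.9 in the mutant against 4.29 in wild type at 7.5 dpf. It had 0 reads in the 5.5 dpf mutant library against 55 in wild type, and was thus at least 18.5-fold lower there and 11.2-fold higher (counting interval 9.40 to 13.3) at 7.5 dpf. The remaining genes lsm2, lsm3 and lsm5 had differences between 0.22 and 1.75, all positive.

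The tri-snRNP genes had the highest share of higher calls of any group at 5.5 dpf. There 9 of 11 were 2-fold higher and 2 lower in the mutant, beside 28% and 25.6% of all tested genes. At 7.5 dpf all 11 were higher, beside 40%, and 3 of them had 0 reads in wild type there. The medians of these genes were 2.07 at 5.5 dpf and 2.93 at 7.5 dpf. The most abundant was snrnp27, for the 27 kDa protein of the tri-snRNP, at 519 RPKM in the mutant against 109 RPKM in wild type at 5.5 dpf, and 707 in the mutant against 92.1 in wild type at 7.5 dpf. The prpf31 gene, whose product links U4 to U5, was at 55.4 RPKM in the mutant against 2.17 RPKM in wild type at 5.5 dpf, and 40.2 in the mutant against 11.2 in wild type at 7.5 dpf. Its partner in the U4/U6 particle, prpf4, was at 38.3 RPKM in the mutant against 2.76 RPKM in wild type at 5.5 dpf, and 23.4 in the mutant against 4.71 in wild type at 7.5 dpf. In all 3 both mutant libraries were above both wild-type libraries, and for prpf31 and prpf4 the 5.5 dpf wild-type library was the lowest.

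The snrnp200 gene encodes the helicase that unwinds U4 from U6 and was at 9.80 RPKM in the mutant against 0.0903 RPKM in wild type at 5.5 dpf, and 22.4 in the mutant against 0.980 in wild type at 7.5 dpf. With 25 reads in the 5.5 dpf wild-type library, against 2742 in the mutant, it was 108-fold higher (counting interval 73.3 to 168) there and 22.9-fold higher (counting interval 20.3 to 25.9) at 7.5 dpf. The usp39 gene, whose product is needed for the tri-snRNP to join, was at 8.63 RPKM in the mutant against 0 RPKM in wild type at 5.5 dpf, and 25.01 in the mutant against 2.23 in wild type at 7.5 dpf. Wild type had no usp39 read at 5.5 dpf, so by the bound of 3 reads the gene was at least 192-fold higher in the mutant. The sart1 gene, for a tri-snRNP protein, was at 25.4 RPKM in the mutant against 8.42 RPKM in wild type at 5.5 dpf, and 67.4 in the mutant against 16.04 in wild type at 7.5 dpf. The 2 IDs described as Pre-mRNA-processing factor 6, the bridge of U5 with U4/U6, summed to 71.2 RPKM in the mutant against 30.2 RPKM in wild type at 5.5 dpf, and 164 in the mutant against 28.3 in wild type at 7.5 dpf. On the log2(RPKM + 1) scale these sums differed by 1.21 at 5.5 dpf and 2.50 at 7.5 dpf.

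Both genes that were lower at 5.5 dpf were higher at 7.5 dpf. The prpf38a gene, for a protein of the complex formed when the tri-snRNP joins, was at 0 RPKM in the mutant against 12.3 RPKM in wild type at 5.5 dpf, and 31.3 in the mutant against 0 in wild type at 7.5 dpf. The snrnp40 gene, for the 40 kDa protein of U5, was at 0.115 RPKM in the mutant against 17.04 RPKM in wild type at 5.5 dpf, and 20.3 in the mutant against 0 in wild type at 7.5 dpf. Each was thus near 0 in the 5.5 dpf mutant and at 0 in the 7.5 dpf wild type, with 579 and 877 reads in the 5.5 dpf wild type and 1212 and 863 reads in the 7.5 dpf mutant. The related prpf38b was at 21.5 RPKM in the mutant against 4.35 RPKM in wild type at 5.5 dpf, and 3.62 in the mutant against 0 in wild type at 7.5 dpf.

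**Figure D3:**
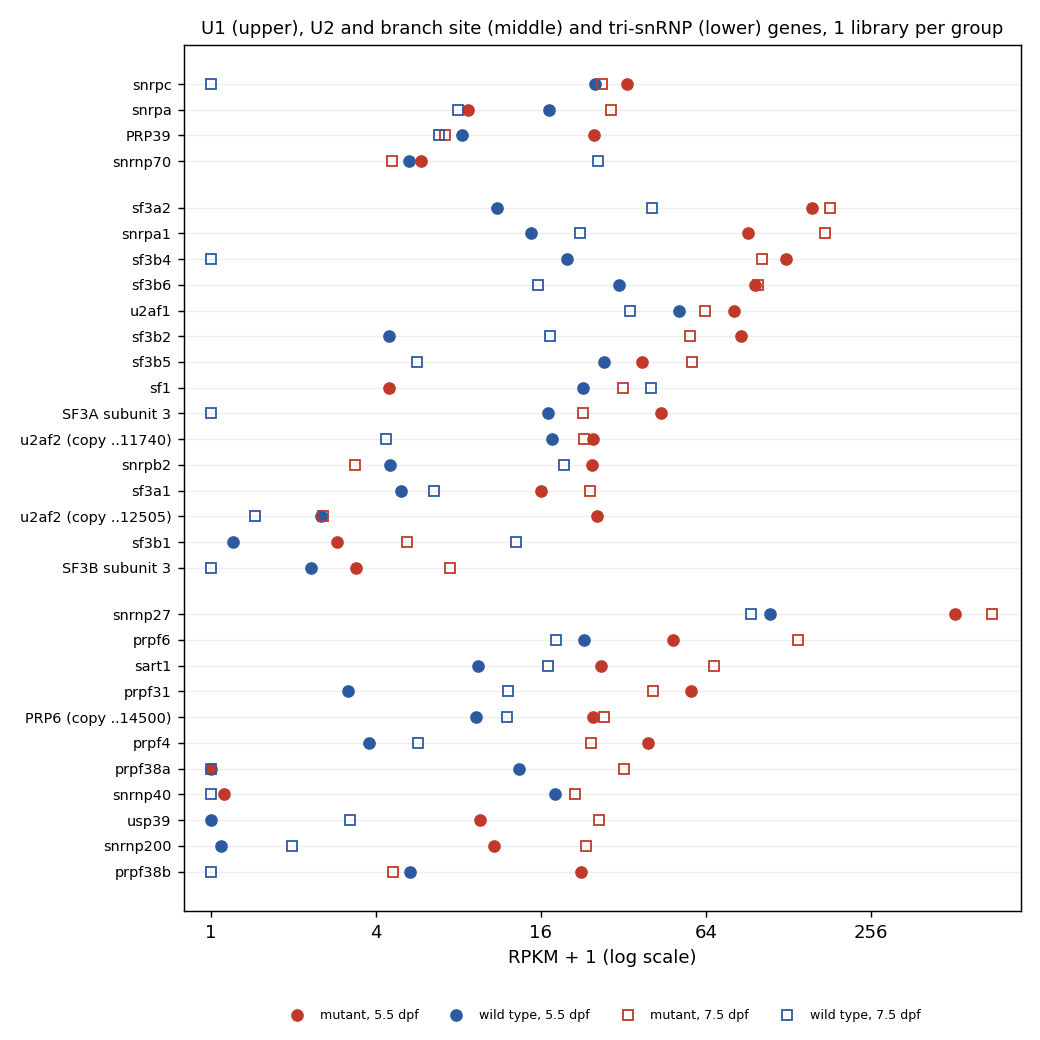
RPKM + 1 on a log axis in each of the 4 libraries for the U1, U2 and branch site, and tri-snRNP genes, ordered by mean RPKM within each block; mutant in red and wild type in blue, 5.5 dpf as circles and 7.5 dpf as open squares, 1 library per symbol. Mutant symbols lie to the right of both wild-type ones for 12 of 15 U2 genes and 8 of 11 tri-snRNP genes, but for 1 of the 4 U1 genes drawn. The share over all tested genes was 22.8%.

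Of the 15 genes of U2 snRNP and branch site recognition, 10 were higher and 1 lower in the mutant at 5.5 dpf (median 1.65). Of all tested genes 28% were higher and 25.6% lower there. At 7.5 dpf 10 of the 15 were higher and 2 lower (median 2.16), beside 40% and 23.1%. The SF3A and SF3B complexes, which anchor U2 at the branch site, held the largest differences. The sf3a2 gene was at 155 RPKM in the mutant against 10.04 RPKM in wild type at 5.5 dpf, and 181 in the mutant against 39.8 in wild type at 7.5 dpf. The sf3b4 gene was at 124 RPKM in the mutant against 18.9 RPKM in wild type at 5.5 dpf, and 101 in the mutant against 0 in wild type at 7.5 dpf. It had no read in the 7.5 dpf wild type, the library that stood apart. By a bound of 3 reads, which treats reads as independent, sf3b4 was at least 1706-fold higher in the mutant there. At 5.5 dpf, with 928 reads in wild type, it was 6.57-fold higher. The sf3b2 gene was at 84.9 RPKM in the mutant against 3.49 RPKM in wild type at 5.5 dpf, and 55.02 in the mutant against 16.3 in wild type at 7.5 dpf. All 3 were higher in both mutant libraries than in either wild-type library.

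The snrpa1 gene, for the U2 protein A′, was at 90.2 RPKM in the mutant against 13.7 RPKM in wild type at 5.5 dpf, and 173 in the mutant against 21.2 in wild type at 7.5 dpf. The sf3b6 gene, for a subunit that touches the branch point, had differences of 1.65 at 5.5 dpf and 2.67 at 7.5 dpf. Both were called higher at both stages, as was sf3a1. The sf3a1 gene was at 14.96 RPKM in the mutant against 3.94 RPKM in wild type at 5.5 dpf, and 23.3 in the mutant against 5.53 in wild type at 7.5 dpf. The gene described as Splicing factor 3A subunit 3 (ENSDARG00000056447) was at 42.9 RPKM in the mutant against 16.02 RPKM in wild type at 5.5 dpf, and 21.9 in the mutant against 0 in wild type at 7.5 dpf. U2AF reads the 3′ splice site. The 2 IDs for its 65 kDa subunit (u2af2) summed to 48.5 RPKM in the mutant against 18.03 RPKM in wild type at 5.5 dpf, and 23.6 in the mutant against 3.81 in wild type at 7.5 dpf. The less abundant ID (ENSDARG00000012505) held most of the 5.5 dpf difference (3.36) and the other (ENSDARG00000011740) most of that at 7.5 dpf (2.40).

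Other genes of the U2 group did not follow this direction at both stages. The sf1 gene, whose product binds the branch point before U2 does, was at 3.46 RPKM in the mutant against 21.8 RPKM in wild type at 5.5 dpf, and 30.9 in the mutant against 39.4 in wild type at 7.5 dpf. In CPM sf1 was 6.29-fold lower (counting interval 5.65 to 7.03) at 5.5 dpf. The snrpb2 gene, for the U2 protein B″, was at 23.7 RPKM in the mutant against 3.51 RPKM in wild type at 5.5 dpf, and 2.36 in the mutant against 18.5 in wild type at 7.5 dpf. The sf3b1 gene, for the subunit that clasps the branch helix, was at 1.88 RPKM in the mutant against 0.204 RPKM in wild type at 5.5 dpf, and 4.18 in the mutant against 12.01 in wild type at 7.5 dpf. Both snrpb2 and sf3b1 were thus higher in the mutant at 5.5 dpf and lower at 7.5 dpf.

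The U1 genes, whose snRNP makes the first contact with the intron, were more mixed. Of 5 genes 1 was higher and 1 lower in the mutant at 5.5 dpf (median 0.15), beside 28% and 25.6% of all tested genes. At 7.5 dpf 3 were higher and 1 lower (median 1.84), beside 40% and 23.1%. The snrpc gene, for protein C of U1, was at 32.01 RPKM in the mutant against 24.1 RPKM in wild type at 5.5 dpf, and 25.7 in the mutant against 0 in wild type at 7.5 dpf. The snrnp70 gene, for the 70 kDa protein of U1, was at 4.87 RPKM in the mutant against 4.30 RPKM in wild type at 5.5 dpf, and 3.58 in the mutant against 24.8 in wild type at 7.5 dpf. Its 7.5 dpf wild-type value was the highest of the 4. The U1 genes thus differed from one another in direction at 5.5 dpf. The snrpa gene, for protein A of U1, had differences of -0.98 at 5.5 dpf and 1.84 at 7.5 dpf, and the gene described as Pre-mRNA-processing factor 39 (ENSDARG00000042080) of 1.60 at 5.5 dpf and 0.07 at 7.5 dpf.

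In the Prp19 complex and the factors of the catalytic steps, 3 of 12 genes (25%) were higher and 2 lower in the mutant at 5.5 dpf (median 0.52). Of all tested genes 28% were higher and 25.6% lower there. At 7.5 dpf 7 of the 12 were higher and 1 lower (median 1.38), beside 40% and 23.1%. The prpf19 gene, for the ubiquitin ligase at the core of the Prp19 complex, was at 65.5 RPKM in the mutant against 14.3 RPKM in wild type at 5.5 dpf, and 54.2 in the mutant against 11.3 in wild type at 7.5 dpf. The bcas2 gene, for its SPF27 subunit, was at 111 RPKM in the mutant against 41.6 RPKM in wild type at 5.5 dpf, and 137 in the mutant against 51.8 in wild type at 7.5 dpf. In these genes each genotype kept nearly the same level at both stages, and the differences were 2.12 at 5.5 dpf and 2.17 at 7.5 dpf for prpf19 and 1.40 at 5.5 dpf and 1.39 at 7.5 dpf for bcas2. The xab2 gene, for the SYF1 protein, was read in the 5.5 dpf mutant at 23.1 RPKM and at 0 to 1 read in the other libraries. By the bound of 3 reads it was at least 803-fold higher at 5.5 dpf. The 2 IDs described as RBM22, which contacts the catalytic RNA core, summed to 4.02 RPKM in the mutant against 8.90 RPKM in wild type at 5.5 dpf, and 4.73 in the mutant against 16.04 in wild type at 7.5 dpf. The more abundant one (ENSDARG00000087678) was the only one of the 81 members that was 2-fold lower at both stages (-1.40 at 5.5 dpf and -1.50 at 7.5 dpf), beside 7.73% of all tested genes.

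SR proteins and SR-like factors were called higher about as often as all tested genes were, and lower less often. Of 20 genes, 5 were higher and 1 lower in the mutant at 5.5 dpf (median 0.64), beside 28% and 25.6% of all tested genes. At 7.5 dpf 8 were higher and 3 lower (median 0.90), beside 40% and 23.1%. The most abundant, srsf5a, which the files describe as serine/arginine-rich splicing factor 4, was at 44.7 RPKM in the mutant against 55.6 RPKM in wild type at 5.5 dpf, and 58.7 in the mutant against 76.3 in wild type at 7.5 dpf. The srsf2a gene was at 49.7 RPKM in the mutant against 21.1 RPKM in wild type at 5.5 dpf, and 47.4 in the mutant against 21.9 in wild type at 7.5 dpf. Both mutant libraries of srsf2a were above both wild-type ones, which held for 10 of the 20 genes, beside 22.8% of all tested genes. The summed level of the group was 349.6 RPKM in the mutant against 246 RPKM in wild type at 5.5 dpf, and 395 in the mutant against 327 in wild type at 7.5 dpf.

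Copies of SR genes did not always move together. Of the IDs for srsf1, the founding SR protein of splice site choice, ENSDARG00000017843 was at 36.03 RPKM in the mutant against 8.14 RPKM in wild type at 5.5 dpf, and 16.8 in the mutant against 1.08 in wild type at 7.5 dpf. Its copy ENSDARG00000057691 had differences of 0.68 at 5.5 dpf and 1.23 at 7.5 dpf. Both srsf1 copies were thus higher in the mutant, but the copies of srsf6 and of srsf3 differed in direction at 7.5 dpf. For srsf6, ENSDARG00000013729 had differences of 1.53 at 5.5 dpf and 1.58 at 7.5 dpf and ENSDARG00000016783 of 0.62 at 5.5 dpf and -0.62 at 7.5 dpf. For srsf3, ENSDARG00000059360 had differences of -0.21 at 5.5 dpf and 2.32 at 7.5 dpf and ENSDARG00000025397 of -0.37 at 5.5 dpf and -0.62 at 7.5 dpf. The 2 IDs for scaf4, an SR-like protein that binds the tail of RNA polymerase II, had the lowest differences of any member at 7.5 dpf. The ID ENSDARG00000018854 was at 0.0307 RPKM in the mutant against 1.06 RPKM in wild type at 5.5 dpf, and 0 in the mutant against 21.7 in wild type at 7.5 dpf. The ID ENSDARG00000077093 was at 6.70 RPKM in the mutant against 1.92 RPKM in wild type at 5.5 dpf, and 0.0828 in the mutant against 13.5 in wild type at 7.5 dpf. Both scaf4 IDs were thus near 0 in the 7.5 dpf mutant and high in the 7.5 dpf wild type. In all, 18 tested members shared a description with another. The sources used here do not state how the counting divided reads between near-identical genes, and values of single copies are therefore uncertain.

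No group held 2 further members. The rbm17 gene, for splicing factor 45, was at 13.7 RPKM in the mutant against 5.44 RPKM in wild type at 5.5 dpf, and 14.6 in the mutant against 0 in wild type at 7.5 dpf. The scaf1 gene had differences of -0.78 at 5.5 dpf and 0.58 at 7.5 dpf.

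The mutant comparisons at the 2 stages share no library. Of the 81 members, 31 were 2-fold higher in the mutant at both stages (38.3%), beside 12.1% of all tested genes. These were 77.5% of the members called higher at 5.5 dpf and 57.4% of those at 7.5 dpf. By group, both calls were higher for 9 of 11 tri-snRNP genes, 5 of 8 Sm genes, 4 of 8 LSm genes and 7 of 15 U2 genes. The same held for 3 of 20 SR genes, 2 of 12 Prp19 complex and catalytic genes and none of the 5 U1 genes. A further 3 members were higher at 5.5 dpf and lower at 7.5 dpf, beside 4.1%, and 4 did the reverse, beside 8.41%; 11 were called at neither stage. Both mutant libraries were above both wild-type libraries for 54 of 81 members (66.7%), beside 22.8% of all tested genes, and below both for 2, beside 13%. The difference was above 0 at both stages for 56 members, beside 29.8%. The size of the difference at one stage said little of that at the other: over the 81 members Pearson's r was 0.16 and Spearman's rho 0.23, and over all tested genes both were 0.12. These are correlations across genes of the same 4 libraries, and genes are not independent replicates.

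**Figure D4:**
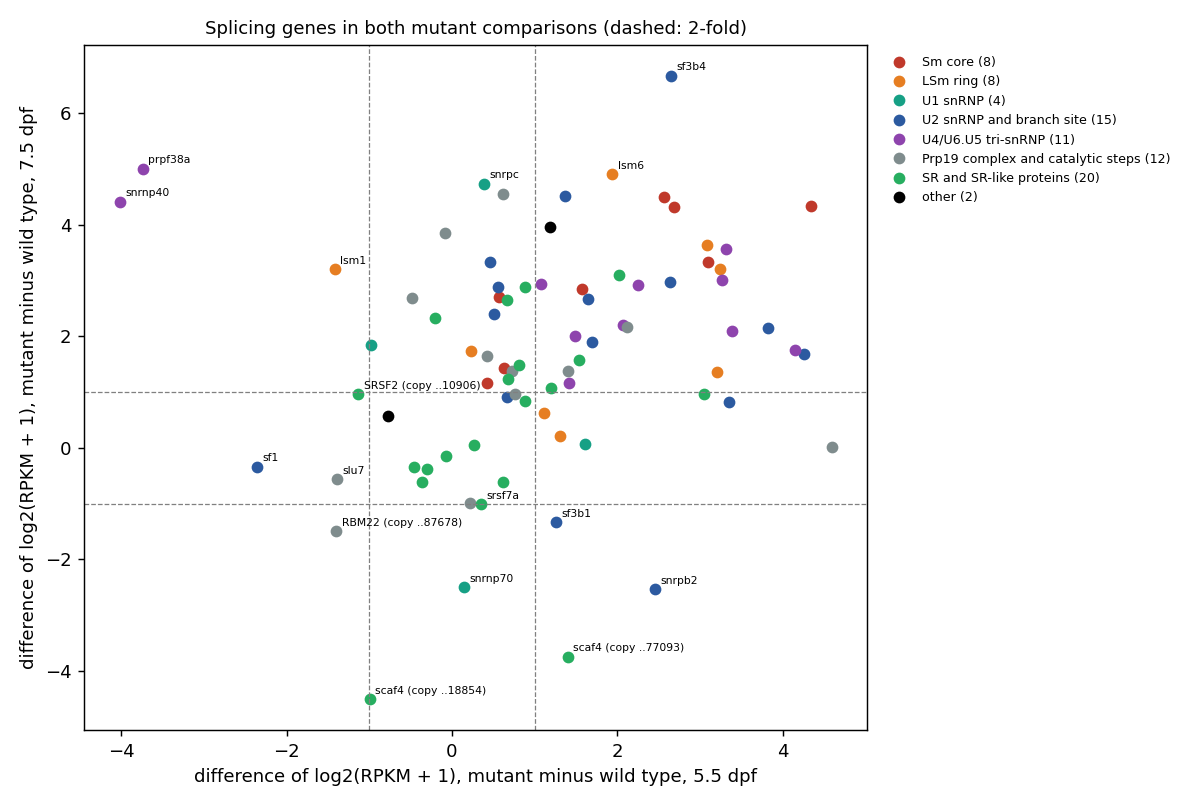
Difference of log2(RPKM + 1), mutant minus wild type, at 5.5 dpf (x axis) and 7.5 dpf (y axis) for 80 of the 81 tested members, coloured by group, with dashed lines at 2-fold. The upper right corner, past 2-fold at both stages, holds 31 members, and the lower left corner holds 1.

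A fit over all 4 libraries, with genotype and stage as terms, let the stages stand in for replicates and left 1 residual degree of freedom. With limma on log2(RPKM + 1), fitted on all tested genes with Benjamini-Hochberg adjustment over them, 11 members had an adjusted p below 0.05, all higher in the mutant, beside 2.19% of all tested genes. They were snrpd2, snrpe and the genes for Sm F and Sm G in the Sm core, lsm6, lsm7 and lsm8, snrnp27 of the tri-snRNP, and sf3a2, sf3b4 and snrpa1 of U2. The fitted difference was 3.50 for snrpd2 (limma adjusted p = 5.02e-07), 3.22 for lsm7 (limma adjusted p = 7.44e-07) and 2.80 for snrpa1 (limma adjusted p = 0.0332). At an unadjusted p under 0.05, limma gave 26 members, all higher, beside 10.8%. The result turned on the tool: edgeR's quasi-likelihood test on the recovered reads called 0 members and 0 of all tested genes, with 8 members at an unadjusted p under 0.05, beside 3.07%. DESeq2 called 9 members, of which 8 were higher, beside 7.01%, and gave 23 members at an unadjusted p under 0.05, beside 19.8%. A genotype effect that differs between the stages counts as error in these fits.

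Between the stages, members were called about as often as all tested genes or in smaller shares. In the mutant 20 of 81 were 2-fold higher at 7.5 than at 5.5 dpf, beside 33.8% of all tested genes, and 11 were lower, beside 26.2%, with a median difference of 0.23. In wild type 15 of 81 were higher at 7.5 dpf, beside 21.4%, and 25 were lower, beside 30.1%, with a median difference of -0.02. The members had smaller shares than all tested genes in these counts, except among genes lower in wild type at 7.5 dpf. Among members with more than 3 reads in both libraries, 16 of 75 were higher and 10 lower in the mutant, beside 30% and 21.4%. In wild type 14 of 67 were higher and 13 lower, beside 25.7% and 18.8%. These comparisons use the same libraries as the mutant comparisons and are no independent evidence. In the mutant the tri-snRNP genes were the group with most calls higher at 7.5 dpf, 6 of 11, led by prpf38a (5.01) and snrnp40 (4.26), and lsm1 had the highest difference of any member (5.61). The lowest in the mutant was xab2 (-4.57), followed by the u2af2 ID ENSDARG00000012505 (-3.33), snrpb2 (-2.88) and prpf38b (-2.28) among members of at least 10 RPKM in either mutant library. In wild type snrpc (-4.65), sf3b4 (-4.31), snrnp40 (-4.17) and the gene for SF3A subunit 3 (-4.09) were lowest at 7.5 dpf, each at 0 reads there. The highest in wild type were both scaf4 IDs (3.47 and 2.31), sf3b1 (3.43) and the srsf6 ID ENSDARG00000016783 (2.69).

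Splicing-related genes outside the rule, in 6 lists with 95 tested genes, stood nearer to all tested genes than the members did. At 5.5 dpf 32 were higher in the mutant (33.7%, beside 28% of all tested genes) and 26 lower (27.4%, beside 25.6%), with a median of 0.06 against 0.00. At 7.5 dpf 46 were higher (48.4%, beside 40%) and 18 lower (18.9%, beside 23.1%), with a median of 0.96 against 0.33. Some lists were close to these shares of all tested genes at 1 stage only. The share of hnRNP genes higher was close at 5.5 dpf (28.6%), but above it at 7.5 dpf (12 of 21, beside 40%). That of exon junction complex genes was close at 7.5 dpf (45.5%), but above it at 5.5 dpf (8 of 11, beside 28%). Among exon junction complex genes, which mark spliced mRNA, 8 of 11 were higher and 1 lower at 5.5 dpf (median 1.26) and 5 higher and 1 lower at 7.5 dpf (median 0.61). Of these sap18 was at 239.8 RPKM in the mutant against 48.1 RPKM in wild type at 5.5 dpf, and 187 in the mutant against 61.1 in wild type at 7.5 dpf. The rbm8a gene, for the Y14 subunit, had differences of 1.12 at 5.5 dpf and 1.22 at 7.5 dpf. Among helicases and Prp19 partners 9 of 19 were higher and 1 lower at 5.5 dpf (median 0.99) and 9 higher and 3 lower at 7.5 dpf (median 0.98). Differences were, for ddx5, 0.06 at 5.5 dpf and 0.21 at 7.5 dpf and, for the ddx39a ID ENSDARG00000015111, 1.46 at 5.5 dpf and 1.54 at 7.5 dpf.

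Beside the counts of the next lists, 28% of all tested genes were higher and 25.6% lower at 5.5 dpf, and 40% and 23.1% at 7.5 dpf. The hnRNP proteins, which coat pre-mRNA, had 6 of 21 higher and 7 lower at 5.5 dpf (median 0.17) and 12 higher and 4 lower at 7.5 dpf (median 1.43). The hnrnpa0b gene had differences of -1.48 at 5.5 dpf and 0.83 at 7.5 dpf, and hnrnpab had 0.01 at 5.5 dpf and 1.36 at 7.5 dpf. Alternative splicing regulators had 4 of 22 higher and 7 lower at 5.5 dpf (median -0.40) and 13 higher and 4 lower at 7.5 dpf (median 1.69). The khdrbs1a gene had differences of -0.26 at 5.5 dpf and 0.96 at 7.5 dpf, and tardbp had -0.30 at 5.5 dpf and 2.54 at 7.5 dpf. Genes of snRNP assembly, the pathway that loads Sm rings onto snRNA, had 3 of 13 higher and 6 lower at 5.5 dpf (median -0.46) and 6 higher and 3 lower at 7.5 dpf (median 0.66). Of these, gemin2 was at 10.5 RPKM in the mutant against 24.1 RPKM in wild type at 5.5 dpf, and 105 in the mutant against 0 in wild type at 7.5 dpf. The smn1 gene was at 21.5 RPKM in the mutant against 8.38 RPKM in wild type at 5.5 dpf, and 103 in the mutant against 0 in wild type at 7.5 dpf. Both had their highest value in the 7.5 dpf mutant and 0 in the 7.5 dpf wild type. The next most abundant of this list, gemin7, went the other way at 7.5 dpf (0.346 RPKM in the mutant against 49.9 RPKM in wild type). SR protein kinases had 2 of 9 higher and 4 lower at 5.5 dpf (median -0.43) and 1 higher and 3 lower at 7.5 dpf (median -0.91). The clk4a gene had differences of 0.20 at 5.5 dpf and -1.25 at 7.5 dpf, and srpk1a had 0.63 at 5.5 dpf and -0.91 at 7.5 dpf.

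By length, the share of members called higher was largest for short genes. Of the 18 members with a gene length under 1000 bases, 12 were higher at 5.5 dpf (66.7%) and 17 at 7.5 dpf (94.4%), against 30.9% and 41.7% of the 1764 other genes that short. Among the 24 members of 3000 bases or more the shares were 33.3% and 50%, against 25.6% and 39.9% of 2802 other genes. Lengths were those implied by the ratio of reads to RPKM. Most members under 1000 bases were Sm or LSm genes, so length and group cannot be told apart here. Without the members under 1000 bases 28 of 63 were higher and 7 lower at 5.5 dpf, and 37 higher and 7 lower at 7.5 dpf. In the length classes from 1000 bases up, 25.6 to 28.3% of other tested genes were higher and 25.8 to 28.0% lower at 5.5 dpf. At 7.5 dpf these shares were 38.8 to 40.1% and 23.3 to 24.7%.

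**Figure D5:**
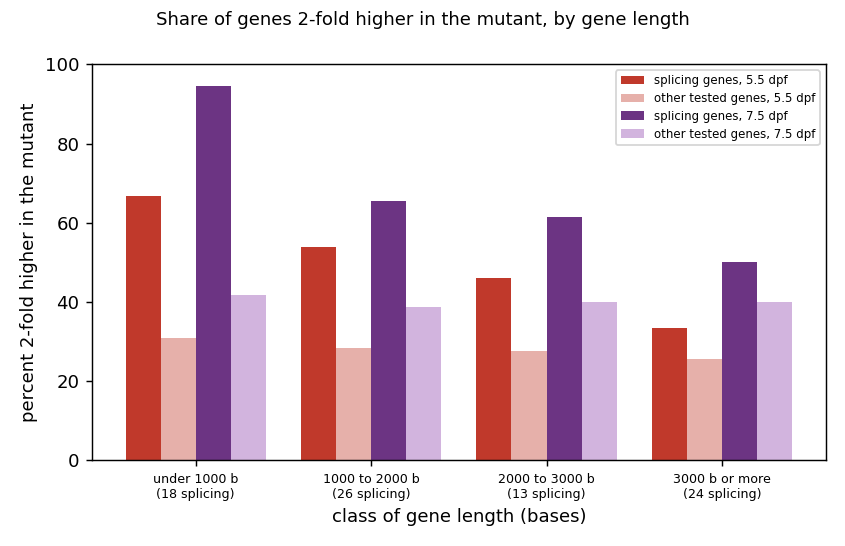
Percent of genes 2-fold higher in the mutant than in wild type, for splicing genes (dark bars) and all other tested genes (light bars) at 5.5 dpf (red) and 7.5 dpf (purple), by class of gene length in bases, with the number of splicing genes in brackets. The gap between dark and light bars was widest for members under 1000 bases.

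Markers of other cells also differed between the libraries. Of 5 myeloid markers, 1 was above 0 in the 5.5 dpf mutant and 2 in the 5.5 dpf wild type (summed level 0.152 RPKM in the mutant against 14.9 RPKM in wild type). There were 3 above 0 in the 7.5 dpf mutant and none in the 7.5 dpf wild type (165 RPKM in the mutant against 0 in wild type). The defining gene ptprc was at 0 in all 4 libraries and lyz at 0 in both mutant ones. The 5 stellate or mesenchymal markers, of which 4 or 5 were above 0 in each library, summed to 63.0 RPKM in the mutant against 32.7 RPKM in wild type at 5.5 dpf and to 186 in the mutant against 44.1 in wild type at 7.5 dpf. The 4 exocrine pancreas markers summed to 0.550 RPKM in the mutant, with 3 of them at 0, against 269 RPKM in wild type at 5.5 dpf, and to 227 in the mutant against 971 in wild type at 7.5 dpf. All 4 were above 0 in the last 3 libraries. The pancreas sum was thus lower in the mutant at both stages, and the mesenchymal sum higher. The 4 biliary markers, mostly krt4, summed to 6712 RPKM in the mutant against 3497 RPKM in wild type at 5.5 dpf and to 4434 in the mutant against 6338 in wild type at 7.5 dpf. There were 4 above 0 in each mutant library and 3 in each wild-type one, cldn15la being at 0 in both wild-type libraries. At 7.5 dpf krt4 alone was lower in the mutant (3303 RPKM against 5829 RPKM in wild type). The markers krt18a.1, anxa4 and cldn15la were higher in the mutant at both stages. The 3 erythroid markers summed to 19.1 RPKM in the mutant against 12.02 RPKM in wild type at 5.5 dpf and to 40.1 in the mutant against 0.427 in wild type at 7.5 dpf. Of these, 1 to 2 were above 0 in each library, and alas2 was at 0 in all. The 3 enterocyte markers summed to between 9.84 and 48.9 RPKM, with 1 to 3 above 0, and the 2 endothelial ones to at most 0.425 RPKM, with cdh5 at 0 in all 4. The part of these cells in the splicing gene differences was not tested. The mesenchymal and erythroid sums were higher in the mutant at both stages, but single markers in them went the other way. At 5.5 dpf col1a2 was at 2.15 RPKM in the mutant against 13.6 RPKM in wild type, and hbae1.1 at 0 against 4.13. At 7.5 dpf dcn was at 0 RPKM in the mutant against 0.384 RPKM in wild type.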

How the data were processed

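Hepatocyte libraries of 4 groups, 1 each, were grouped by genotype and stage in their titles. DESeq 1.16.0, HTSeq 0.6.0, TopHat2 2.0.12 and Bowtie2 2.2.3 are named in the submitters' processing notes. The sources used here state no genome build, annotation or strandedness of counting. The authors deposited RPKM, per the file headers, for 33737 genes and 4 comparison tables with normalized values, a log2 fold change and a mark of significance. The deposited normalized values proved to be CPM: 100% of values above 0 were whole multiples of 1 read within 0.01 of a read, and these reads were recovered, with 1502 of 44540 values of tested genes filled from the RPKM.

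Differences are of log2(RPKM + 1), mutant over wild type or 7.5 over 5.5 dpf, for genes of mean RPKM of at least 1. A 0 was bounded at 3 reads per library, which treats reads as independent. Folds given as at least are bounds under that assumption only and hold no error over animals. Gene symbols came from a table of IDs, written here in lower case; 68 of the 81 tested members matched, and 13 were placed in groups by their deposited description. Genes were named by abundance (the 8 highest mean RPKM), by the 4 highest and 4 lowest differences of each comparison (members of at least 10 RPKM in 1 of the 2 libraries that stayed past 2-fold with a pseudocount of 5), by calls in both mutant comparisons (at least 10 RPKM in 1 library), and as copies with 1 or more called; copies are IDs that share a symbol. Results for 1 member are not reported here, although the counts hold it. The groups, lists and rules were chosen with earlier results of these data known. Software was R 4.3.3, limma 3.58.1, edgeR 4.0.16, DESeq2 1.42.0, Python 3.11.15, numpy 2.4.6, pandas 2.3.3, scipy 1.17.1 and matplotlib 3.10.9. Tested on simulated counts for 11135 genes in 4 libraries with 200 changed genes, the additive fit recovered 98.5% (limma), 99% (edgeR) and 97% (DESeq2). The differences set there were of 2 and 3 on the log2 scale. The share that the fits would find of smaller differences, or in the deposited libraries, was not tested. The count tests on recovered reads called 0 genes (edgeR) and 781 genes (DESeq2).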

Additional observations from a re-analysis of the deposited data

Results flagged for a closer look

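In the 6 members given here the mutant differed from wild type in opposite directions at the 2 stages. Over all 81 members, 3 were higher at 5.5 dpf and lower at 7.5 dpf, beside 4.1% of all tested genes. Another 4 did the reverse, beside 8.41%. With 1 library a group, the difference between the stages was not tested. On the log2(RPKM + 1) scale, snrnp40 had differences of -4.02 at 5.5 dpf and 4.42 at 7.5 dpf, and prpf38a had -3.73 at 5.5 dpf and 5.01 at 7.5 dpf; both are tri-snRNP genes at 0 reads in the 7.5 dpf wild type. The lsm1 gene had -1.41 at 5.5 dpf and 3.21 at 7.5 dpf. In the other direction, snrpb2 had 2.45 at 5.5 dpf and -2.54 at 7.5 dpf and sf3b1 had 1.26 at 5.5 dpf and -1.33 at 7.5 dpf, both of the U2 group, and the scaf4 ID ENSDARG00000077093 had 1.40 at 5.5 dpf and -3.74 at 7.5 dpf. With a pseudocount of 5, the call was lost at 5.5 dpf for lsm1 (-0.41), sf3b1 (0.40) and the scaf4 ID (0.76), and at 7.5 dpf for sf3b1 (-0.89).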

How the results depend on the processing

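No paired analysis was possible by replicate number, because each group had 1 library; the fits over all libraries had stage as a term. Of the alternatives to the 2-fold counts and medians of the mutant comparisons, none reversed a direction. With a pseudocount of 5 the members lower were 3 at 5.5 dpf, the median at 7.5 dpf was 1.29, and members lower at 7.5 than at 5.5 dpf were 7 in the mutant and 16 in wild type. Among the 54 members of at least 10 RPKM, 3 were lower at 5.5 dpf and 2 at 7.5 dpf; between stages 9 were higher and 5 lower in the mutant, and 6 higher and 15 lower in wild type, which follows in part from fewer members. TMM scaling shifted both mutant comparisons by -0.37 and both stage comparisons by -0.17 and gave a median of 0.57 at 5.5 dpf, with 35 members higher and 11 lower there and 49 and 8 at 7.5 dpf. For the pseudocount of 5, the 10 RPKM filter and TMM scaling, shares of all tested genes are not given here. Whether the members' excess over all tested genes held under them was not tested. A further 3 settings were chosen after seeing the data. With more than 3 reads in both libraries, 4 of 75 members were lower at 5.5 dpf, and between stages in wild type 13 of 67 were lower and the median was 0.14, against -0.02 over all 81; without members under 1000 bases that median was 0.10. With the 5.5 dpf wild type as the reference for the 7.5 dpf mutant, 3 members were lower and the median was 1.34. The limma fit called 4 members with a pseudocount of 0.1, beside 50 of all 11135 tested genes. At a mean of 10 RPKM limma called 6 of 54 members, beside 54 of 4210 genes. The edgeR test called 0 members and 0 of all tested genes. The cause of these changes was not tested. For single named genes, 8 calls were lost under TMM scaling, 4 on centring and 10 with a pseudocount of 5, and no called difference changed sign; of those not called, xab2 at 7.5 dpf went to -0.31 on centring (0.02 without) and snrnp70 at 5.5 dpf to -0.16 under TMM scaling (0.15 without). Members at 3 reads or fewer were mostly in the 7.5 dpf wild type (13 of 81), although that library held the most reads (36999723). The cause was not tested.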
